A study of Mus musculus with 2 samples.

Results

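Autophagy is the process by which a cell wraps part of its cytoplasm in a double membrane, the autophagosome, and delivers it to the lysosome. A kinase complex around ULK1 starts the process, a lipid kinase complex around BECN1 and PIK3C3 marks the membrane with phosphatidylinositol 3-phosphate (PI3P), and ATG2, ATG9 and the WIPI proteins help it grow. Conjugation enzymes then attach the small LC3 and GABARAP proteins to membrane lipid, ATG4 proteases prepare and remove them, and cargo receptors tie cargo to them. In macrophages the same machinery is known for clearing intracellular bacteria and for limiting inflammatory signalling. The 33 autophagy machinery genes described here were chosen by symbol from these 7 roles, and all 33 were found among the 55536 annotated genes of the tables.

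The samples were 2 biological replicates of total RNA from the nucleoplasmic fraction of macrophages grown from bone marrow of C57BL/6J mice. Both had received 100 ng/ml lipid A, the TLR4-binding anchor of bacterial lipopolysaccharide, for 90 min, and ribosomal RNA had been depleted. No untreated or cytoplasmic library was analysed here, so every comparison is among genes, transcripts and libraries of 1 group and no test between conditions was possible. Since both replicates cite 1 donor entry, their spread may be technical, and they started from unequal RNA (1 µg for replicate 1, 500 ng for replicate 2). The age and sex of the mice were not given in the labels.

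The libraries held 22669533 and 14939143 estimated counts in replicates 1 and 2. The 33 genes took 0.0973% and 0.0995% of the counts of annotated genes, with a median of 433 and 295 counts per gene. Levels are given as TPM, a relative abundance corrected for transcript length, and a protein-coding gene at 1 TPM or more in both libraries is called expressed, which held for 8572 genes. Features with an effective length under 200 bases took 73.9% and 57.0% of all TPM, and the median log2 ratio of TPM over expressed genes, replicate 2 over replicate 1, was 0.38. A mean ± SD of TPM includes this shift between the libraries. All 10 macrophage markers were at 1 TPM or more, with a summed level of 2099 and 2814 TPM. Of the markers of other cells, 0 of 8 for T and B cells, 1 of 7 for neutrophils and 1 of 7 for stroma or endothelium reached 1 TPM in both libraries. Each of these 3 lists summed to between 0.670 and 4.42 TPM in a library, with Cd3e, Cd3g, Trac, Ly6g, Elane, Camp and Col3a1 at 0 in both libraries.

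Several results below turn on introns that annotated transcripts keep, so the boundaries of such introns are shown first. They are read 5′ to 3′ along the gene from GENCODE M21 transcripts annotated as retained intron (mm10), each among the more abundant transcripts of its gene. Capitals mark the first 2 bases (GT) and the last 2 bases (AG) of the intron, with 8 exon bases on the outer side. Becn1 intron 4 (chr11:101295625-101296257, minus strand, 633 bases) is kept in Becn1-210 and Becn1-202, intron 7 (chr11:101294148-101294969, 822 bases) in Becn1-210 and intron 10 (chr11:101289926-101290438, 513 bases) in Becn1-207, numbered along the coding transcript Becn1-205.
Becn1 intron 4 start: ccagccagGTgcttactattcctc
Becn1 intron 4 end: gggtggggggctgtctgcAGgatgatgt
Becn1 intron 7 start: gaagctcaGTgggtgcttgccctg
Becn1 intron 7 end: gtccccttggctgctcccAGgtaccagc
Becn1 intron 10 start: aatctaagGTactctgggagacct
Becn1 intron 10 end: agttctttcttcttgggcAGgagttgcc

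Pik3r4, Atg3, Uvrag and Map1lc3b supply the next set, because retained-intron transcripts held a large part of their reads. Pik3r4-209 keeps the whole of intron 5 (chr9:105654087-105654815, plus strand, 729 bases) and Map1lc3b-202 the whole of intron 2 of Map1lc3b-201 (chr8:121593546-121595985, plus strand, 2440 bases). Atg3-202 begins inside intron 2 (chr16:45162448-45166979, plus strand) and keeps its last 1097 bases, and Uvrag-206 ends inside intron 14 (chr7:98888593-98906491, minus strand) after its first 2153 bases, so each shows 1 boundary.
Pik3r4 intron 5 start: tgacacagGTtgtgttactcccct
Pik3r4 intron 5 end: tccttctctccgcggttcAGagctccag
Map1lc3b intron 2 start: agatcccaGTaggttctcctgccg
Map1lc3b intron 2 end: gagttggcctctctctgcAGgtgattat
Atg3 intron 2 end: tccttgcaatccctgcatAGtttgtggc
Uvrag intron 14 start: gtcaggtgGTgagtatctgcttgc

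Shorter kept introns are shown whole. Intron 12 of Atg16l1-202 (chr1:87785997-87786240, plus strand, 244 bases) is kept in Atg16l1-204, and intron 2 of Gabarap-201 (chr11:69992444-69992581, plus strand, 138 bases) in Gabarap-204.
Atg16l1 intron 12: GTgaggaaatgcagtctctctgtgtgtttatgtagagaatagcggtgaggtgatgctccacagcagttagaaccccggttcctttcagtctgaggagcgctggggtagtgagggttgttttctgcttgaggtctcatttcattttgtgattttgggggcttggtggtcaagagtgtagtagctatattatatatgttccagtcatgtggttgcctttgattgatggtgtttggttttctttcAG
Gabarap intron 2: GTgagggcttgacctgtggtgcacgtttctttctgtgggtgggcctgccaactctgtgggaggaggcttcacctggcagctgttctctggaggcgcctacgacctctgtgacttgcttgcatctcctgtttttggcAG

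Of the 33 genes, 30 reached 1 TPM and 8 reached 10 TPM in both libraries. Of 22028 protein-coding genes 8572 reached 1 TPM in both, and 3226 of those reached 10 TPM. The median of the 33 genes was 4.55 TPM in replicate 1 and 5.88 TPM in replicate 2. It was 0.682 ± 0.00699 (SD, n = 2) of the median over expressed protein-coding genes, which was 6.62 and 8.68 TPM. In both libraries 13 of the 33 genes lay above that median. The highest were Optn, Gabarap, Becn1, Rb1cc1 and Uvrag, and the 3 genes under 1 TPM in at least 1 library were Wipi1, Atg10 and Map1lc3a. Ubiquitin-like conjugation genes and cargo receptors had role medians of 1.31 ± 0.0909 and 1.33 ± 0.233 times the expressed median. The roles with the lowest medians were the PI3P effector, lipid transfer and ATG9 group at 0.448 ± 0.0475 and the ULK1 complex at 0.468 ± 0.0616. By the second quantification, made directly from the reads, cargo receptors stood at 1.84 and conjugation genes at 0.986 times the expressed median. The order of the highest genes also turned there: Becn1 (42.9 and 41.2 TPM) was above Optn (35.3 and 41.1 TPM), and Rb1cc1 (27.0 and 40.7 TPM) above Gabarap (21.0 and 30.5 TPM). Within the roles, 20 of the 26 neighbouring pairs of genes did not overlap in the first quantification, and 18 of these were in the same order without overlap in the second.

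**Figure D1:**
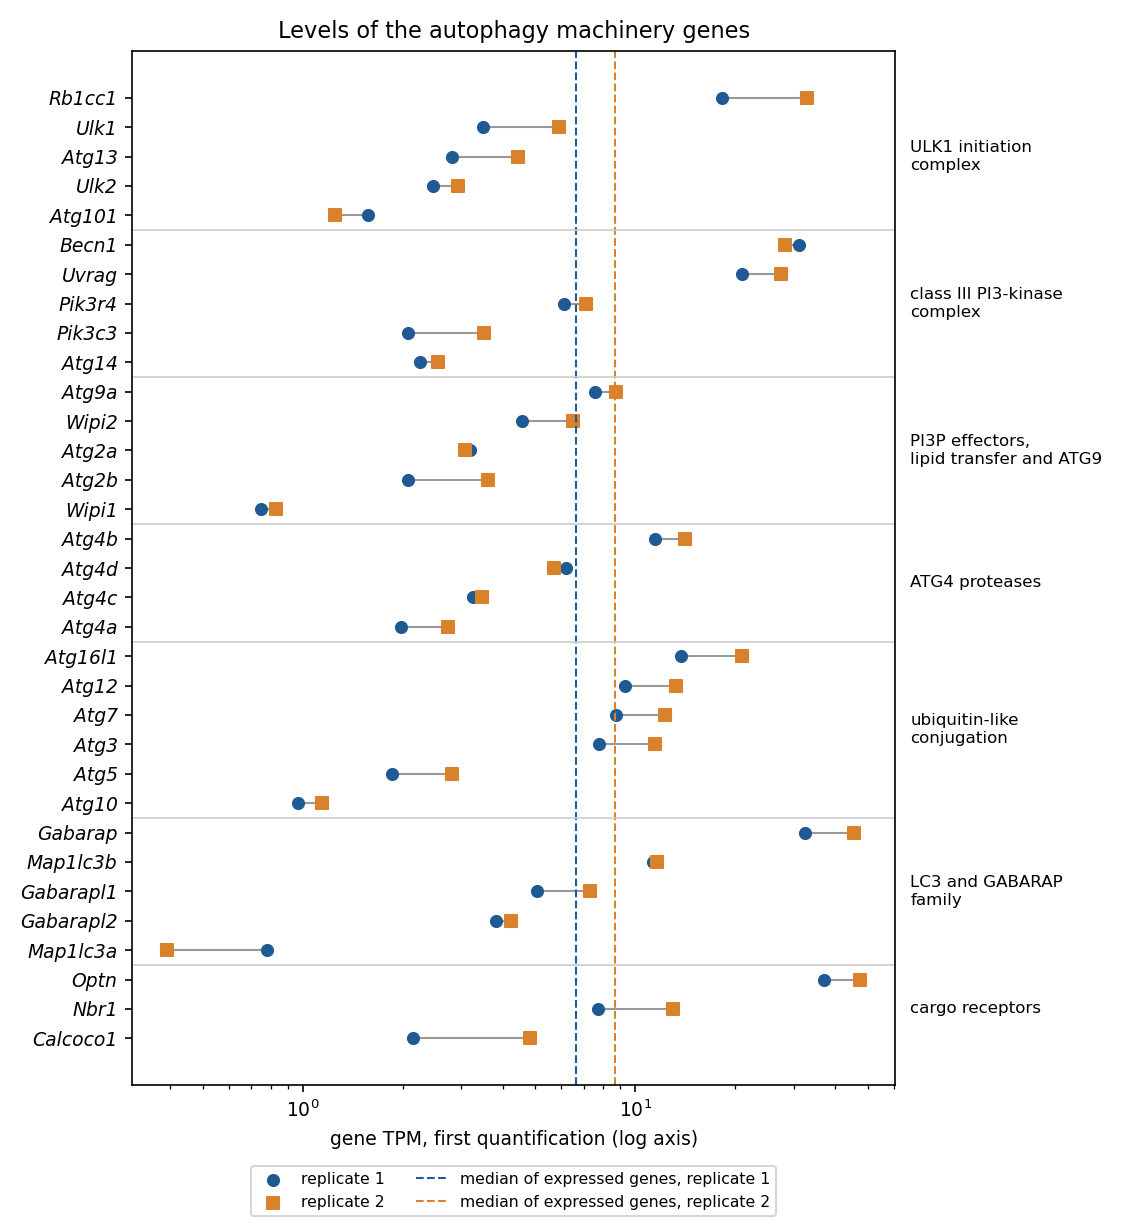
Level of each of the 33 genes (TPM of the first quantification, log axis) in replicate 1 (circles) and replicate 2 (squares), grouped by role and ordered by mean, with dashed lines at the medians over expressed protein-coding genes (6.62 and 8.68 TPM). Optn, at 37.0 and 47.6 TPM, is the highest of all 33 and Map1lc3a, at 0.780 and 0.390 TPM, the lowest.

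The ULK1 initiation complex joins a kinase (ULK1 or ULK2) to the adaptors ATG13 and ATG101 and the scaffold FIP200, the product of Rb1cc1. Rb1cc1 stood at 18.3 TPM in replicate 1 and 32.9 TPM in replicate 2 (1807 and 1566 counts). Ulk1 followed at 3.48 and 5.88 TPM, Atg13 at 2.81 and 4.44 TPM and Ulk2 at 2.47 and 2.94 TPM. The scaffold gene lay above every other gene of the complex in both libraries, whereas the ranges of Ulk1 and Atg13, and of Atg13 and Ulk2, overlapped. Atg101 was lowest at 1.57 and 1.25 TPM, from only 39 and 20 counts, and did not overlap Ulk2.

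In the class III PI3-kinase complex, PIK3C3 is the lipid kinase, PIK3R4 its regulatory subunit and BECN1 a core subunit, while ATG14 and UVRAG are alternative partners that direct the complex to autophagosome formation and to endosomal steps. Becn1 stood at 31.1 and 28.3 TPM (2064 and 1077 counts) and Uvrag at 21.0 and 27.4 TPM (2544 and 1627 counts). Pik3r4 followed at 6.11 and 7.10 TPM, Pik3c3 at 2.07 and 3.52 TPM and Atg14 at 2.25 and 2.55 TPM. Each of the first 3 was above the next in both libraries without overlap, and Pik3c3 and Atg14 changed places between the libraries. Uvrag was thus above Atg14 in both libraries at the gene level. Most of the Becn1 and Uvrag level did not lie on protein-coding transcripts, as described below.

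Among the PI3P effectors, lipid transfer and ATG9 genes, Atg9a, which encodes the membrane protein that seeds the autophagosome, was highest at 7.56 and 8.78 TPM. Wipi2, whose product binds PI3P and recruits ATG16L1, stood at 4.55 and 6.52 TPM. The lipid transfer genes Atg2a (3.19 and 3.07 TPM) and Atg2b (2.07 and 3.60 TPM) overlapped. Wipi1 was the lowest at 0.750 and 0.830 TPM (53 and 34 counts), below Wipi2 in both libraries.

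Of the ATG4 proteases, which trim LC3 and GABARAP precursors and release them from membranes, Atg4b was the highest at 11.5 and 14.1 TPM. Atg4d stood at 6.20 and 5.68 TPM, Atg4c at 3.26 and 3.45 TPM and Atg4a at 1.98 and 2.73 TPM. Over all transcripts, the order of the 4 proteases was the same in both libraries with no overlap between neighbours. By coding transcripts alone Atg4b (2.08 and 3.44 TPM), Atg4d (2.30 and 3.04 TPM) and Atg4c (2.03 and 2.96 TPM) overlapped. Atg4a stayed the lowest on that scale at 1.53 and 1.93 TPM. Of the 50-base words in Atg4a transcripts, 51.2% also occur in the pseudogene Atg4a-ps, which was listed at 0 and 0.120 TPM, so the split of reads between these 2 loci is uncertain.

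In the ubiquitin-like conjugation system, ATG7 is the activating enzyme, ATG3 and ATG10 are transfer enzymes, and the ATG12-ATG5 conjugate with ATG16L1 places LC3 on the membrane. Atg16l1 was highest at 13.7 and 20.9 TPM, above Atg12 at 9.33 and 13.3 TPM. Atg7 (8.75 and 12.3 TPM) and Atg3 (7.76 and 11.5 TPM) overlapped each other, and Atg7 overlapped Atg12. Atg5 was at 1.86 and 2.81 TPM and Atg10 at 0.970 and 1.14 TPM (46 and 25 counts), both below the other 4 genes in both libraries. Atg5 was above Atg10 in the first quantification only; the second gave 1.53 and 1.64 TPM for Atg5 and 1.52 and 1.68 TPM for Atg10. The second also put Atg7 (10.7 and 18.1 TPM) above Atg12 (6.13 and 8.34 TPM). Over all transcripts, the 3 genes of the ATG12-ATG5-ATG16L1 complex therefore lay at different levels, with Atg5 the lowest. By coding transcripts alone Atg12 (2.65 and 4.12 TPM) overlapped Atg5 (1.86 and 2.81 TPM). Atg16l1 (4.39 and 4.28 TPM) stayed above both on that scale.

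In the LC3 and GABARAP family, whose products are coupled to the growing membrane and bind cargo receptors, Gabarap was highest at 32.4 and 45.4 TPM (910 and 650 counts). Map1lc3b, which encodes the commonly used autophagosome marker LC3B, stood at 11.3 and 11.6 TPM (1220 and 606 counts). Gabarapl1 was at 5.05 and 7.30 TPM and Gabarapl2 at 3.81 and 4.23 TPM. Map1lc3a was the lowest of all 33 genes at 0.780 and 0.390 TPM, from 20 and 6 counts. No neighbours in this family overlapped in the first quantification. In the second, Gabarapl2 (3.73 and 5.93 TPM) was above Gabarapl1 (3.59 and 5.76 TPM) in each library, with overlapping ranges. Processed pseudogenes share 12.2% of the 50-base words of Gabarapl2 and 5.77% of those of Map1lc3b.

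Of the cargo receptors, Optn, whose product carries damaged mitochondria and bacteria, was highest at 37.0 and 47.6 TPM (2845 and 1849 counts). Nbr1, a receptor for ubiquitinated proteins, stood at 7.73 and 13.0 TPM, and Calcoco1, a receptor for endoplasmic reticulum and Golgi membrane, at 2.14 and 4.82 TPM. The 3 genes did not overlap. The authors' own TPM interval, whose level the headers do not state, did not hold the deposited TPM of Nbr1 or Atg7 in either library or that of Optn in replicate 2. For Nbr1 in replicate 1 the interval ran from 7.86 to 11.6 TPM. Nbr1, Atg7 and Optn have 21, 17 and 5 annotated transcripts. Becn1 also has 17, and its TPM lay within the interval in both libraries. Why the intervals missed these values was not tested.

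Relative to the whole library, none of the 32 genes that passed the filter on low counts differed by more than 1.5-fold between the replicates after TMM scaling. The background was 4.49% of 10702 protein-coding genes past 1.5-fold higher in replicate 2 and 9.97% past 1.5-fold lower. Among expressed genes only, which are less affected by low counts, it was 2.30% higher and 8.57% lower. The log2 ratios ran from -0.44 for Map1lc3b to 0.43 for Nbr1, with 20 above 0 and 12 below. Of the 10702 protein-coding genes 47.8% were above 0. The median absolute ratio of the 32 genes was 0.14, against 0.22 for expressed protein-coding genes. With 1 library on each side these ratios carry no test.

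The interval from counting error alone excluded 0 for 7 of the 32 genes. No background over all protein-coding genes is given for this count, so it does not set these genes apart. Nbr1 (0.43, interval 0.27 to 0.59), Rb1cc1 (0.36, 0.26 to 0.46), Ulk1 (0.31, 0.08 to 0.55) and Atg4b (0.23, 0.06 to 0.40) were higher in replicate 2. Map1lc3b (-0.44, -0.58 to -0.30), Becn1 (-0.37, -0.48 to -0.26) and Pik3r4 (-0.20, -0.38 to -0.02) were lower. Map1lc3a, with 6 counts in replicate 2, was under the filter.

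**Figure D2:**
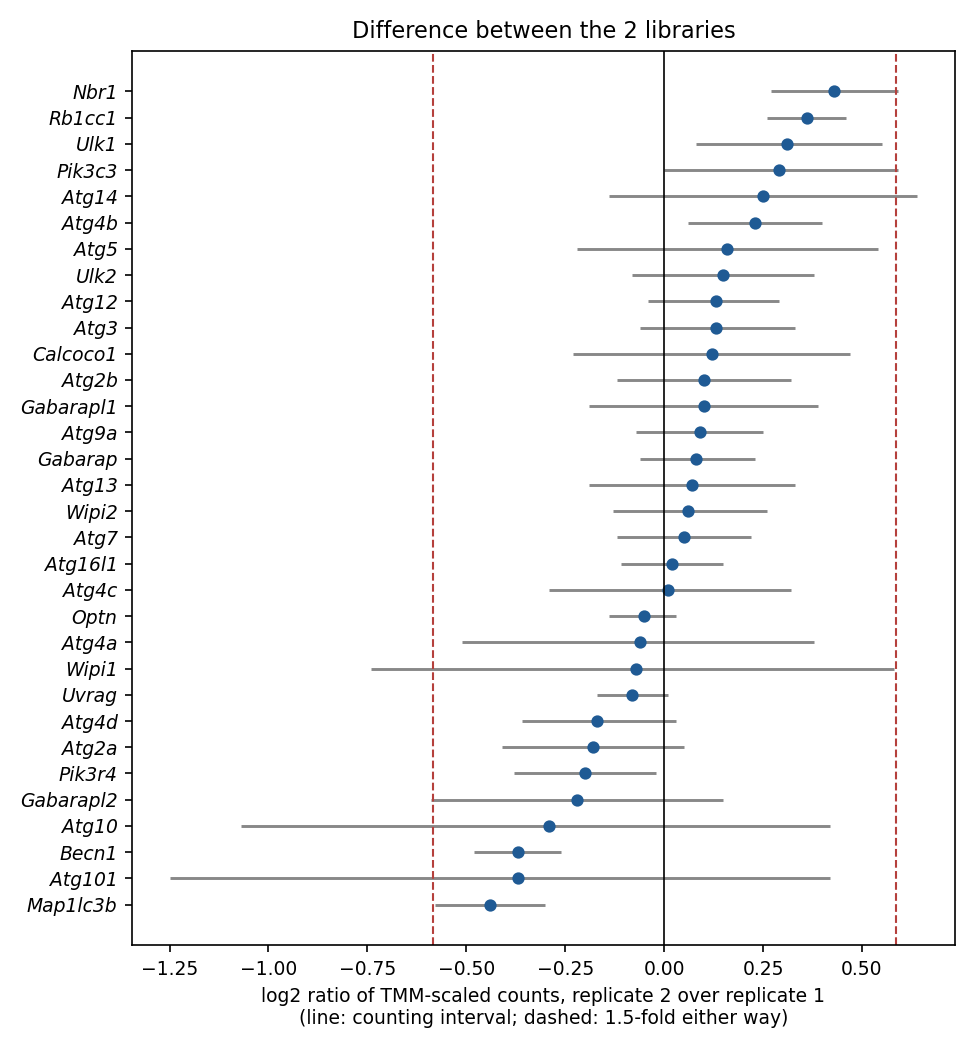
Log2 ratio of TMM-scaled counts, replicate 2 over replicate 1, for the 32 genes tested (points), with the 95% exact counting interval (lines) and 1.5-fold either way (dashed). All points lie within the dashed lines, from -0.44 for Map1lc3b to 0.43 for Nbr1.

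TPM ratios between the libraries differed from count ratios where the effective length of a gene, its average over the transcripts assigned, changed. Calcoco1 had 162 and 119 counts, a TMM-scaled ratio of 1.09-fold, but its effective length was 2173 bases in replicate 1 and 1431 in replicate 2, and its centred TPM ratio was 1.69-fold higher in replicate 2. For Atg101 the effective length was 714 and 929 bases, and its ratio was 1.29-fold lower by counts and 1.61-fold lower by centred TPM. With Map1lc3a, which was also lower, 3 of the 33 genes were past 1.5-fold by centred TPM, against a background of 14.6% of expressed genes in either direction. By the second quantification, Ulk1 was 1.68-fold higher in replicate 2 and Map1lc3a 1.79-fold lower after centring, while the counts of Ulk1 gave 1.24-fold. No other of the 33 genes was past 1.5-fold by that quantification, where the background was 15.4%.

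Nuclear RNA holds transcripts that are still being spliced or that stay in the nucleus with an intron, and the annotation gives some of them a class of their own, retained intron. Of the 33 genes, 22 were expressed and had at least 1 such transcript, and those 22 have 72 of them. Their median length was 940 bases, against 2537 bases for the coding transcripts of the same genes, and a median of 45.3% of their bases lay outside coding-transcript exons. Set against 1 coding transcript per gene, only 16 of the 72, in 10 genes, held at least 1 whole intron. Map1lc3b-202 is not counted there, since the coding transcript used for it, Map1lc3b-204, has no intron. The other 11 of the 33 genes (Ulk2, Atg13, Atg101, Pik3c3, Wipi1, Atg4c, Atg5, Atg10, Map1lc3a, Gabarapl1 and Optn) have no annotated retained-intron transcript, so their share is 0 by construction.

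The retained-intron share is the percent of a gene's TPM on those transcripts. It was 20% or more in both libraries for 17 of the 22 genes (77.3%), where the background was 66.8% of 5581 expressed genes with such a transcript. The medians over the 22 genes were 42.9% and 38.3%, against 35.2% and 34.3% for all such genes. By the second quantification 19 of the 22 reached 20%, against a background of 72.9%. As a share of estimated counts, in which short transcripts weigh less, only 10 of the 22 did (45.5%), against a background of 47.4%. The autophagy genes were thus near the background by counts.

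Both measures placed 10 genes at 20% or more in both libraries: Becn1, Pik3r4, Uvrag, Wipi2, Atg2b, Atg4b, Atg3, Atg12, Atg16l1 and Map1lc3b. In the first quantification Becn1 had the highest share, at 79.9% and 81.2% of TPM and 78.2% and 77.0% of counts. Atg16l1 stood at 67.9% and 79.5% of TPM, Atg12 at 71.6% and 69.1%, Pik3r4 at 67.4% and 65.9%, Atg4b at 72.6% and 54.2%, Wipi2 at 59.6% and 60.2%, and Atg3 at 53.6% and 53.3%. Uvrag was at 43.9% and 38.9% and Atg2b at 25.6% and 23.9%. For Map1lc3b the share was larger by counts (58.5% and 54.4%) than by TPM (46.1% and 42.1%), since Map1lc3b-202, at 4138 bases, is longer than its coding transcripts.

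The other 7 genes passed 20% by TPM only. Ulk1 went from 47.4% and 48.1% of TPM to 6.54% and 7.18% of counts; its 2 leading retained-intron transcripts, Ulk1-204 (645 bases) and Ulk1-208 (613 bases), are short and held 6.75 to 10.8 counts each. Nbr1 was at 31.0% of TPM in both libraries but 4.88% and 4.82% of counts, and Atg14 at 42.0% and 32.2% of TPM but 7.15% and 3.97% of counts. Atg4d (47.8% and 37.8% of TPM), Atg4a (22.3% and 29.6%), Calcoco1 (20.6% and 40.0%) and Rb1cc1 (26.7% and 23.0%) were likewise under 20% by counts in both libraries. By counts these 7 genes lay between 3.78% (Calcoco1 in replicate 1) and 18.2% (Rb1cc1 in replicate 2).

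The 5 genes under 20% by TPM in at least 1 library were Atg2a (19.1% and 20.6%), Gabarap (20.0% and 21.1%, the first just under the threshold before rounding), Atg9a (26.1% and 6.38%), Gabarapl2 (17.6% and 11.3%) and Atg7 (13.3% and 12.9%). Calcoco1, at 20.6%, was just inside. The share differed by a median of 3.08 percentage points between the libraries and by more than 10 points for 5 genes, Atg16l1, Atg4b, Atg4d, Atg9a and Calcoco1. The largest difference was 19.7 points, for Atg9a. No background over all expressed genes with such transcripts is given for these differences.

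**Figure D3:**
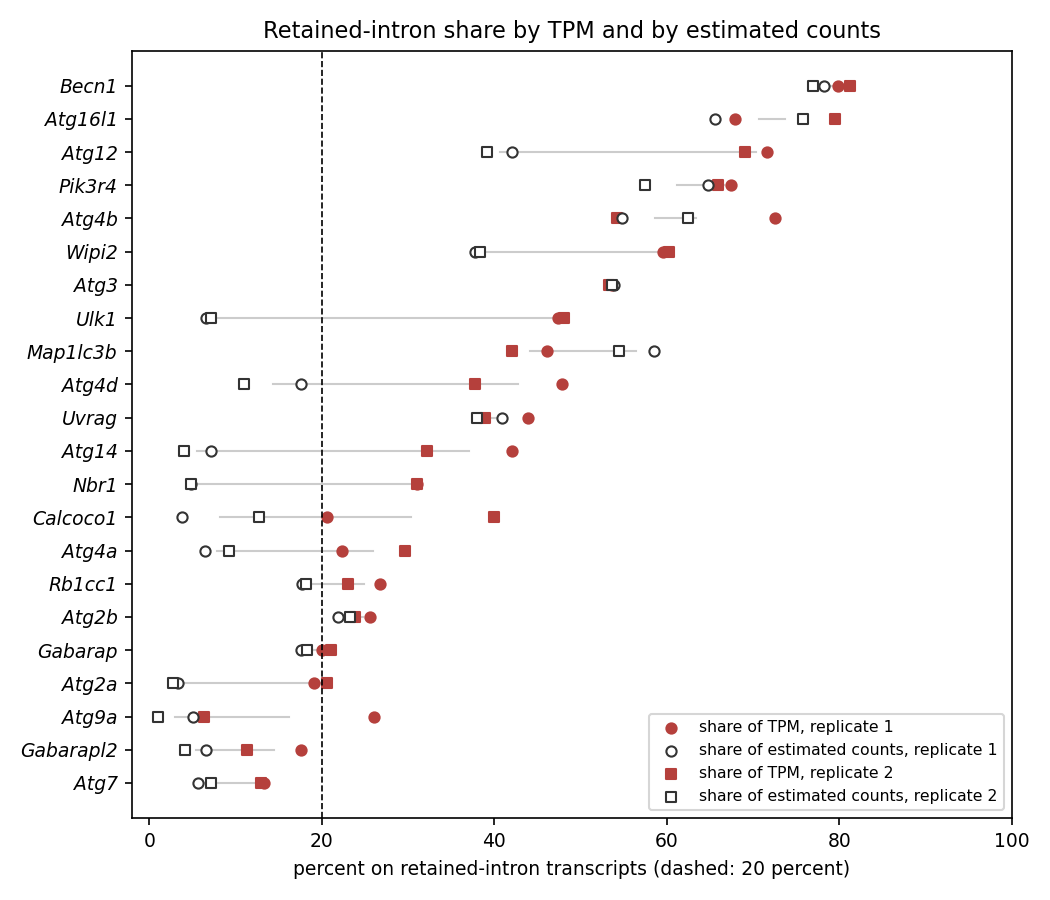
Percent of each gene on retained-intron transcripts, by TPM (filled) and by estimated counts (open), in replicate 1 (circles) and replicate 2 (squares), for the 22 genes with such transcripts; lines join the means of both measures and the dashed line marks 20%. Becn1 lies near 80% by both measures, and Ulk1 falls from 47.4% of TPM to 6.54% of counts in replicate 1.

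Becn1 had the largest retained-intron share of the 22 genes in the first quantification, by TPM and by counts, but not in the second, which gave it 43.6% and 44.5%, against 77.1% and 83.0% for Atg16l1. In the first, its coding transcripts held 7.42% and 7.31% of its TPM, which is 2.31 and 2.07 TPM, and its rank among the 33 genes went from 3 by all transcripts to 26 by coding transcripts. Becn1-210, which keeps introns 4 and 7 shown above, had 9.03 and 6.20 TPM (1025 and 350 counts). Becn1-202, which keeps intron 4, took 15.9% and 35.4% of the TPM of the gene (422 and 425 counts). Only 31.8% of the bases of Becn1-210 and 10.6% of those of Becn1-202 lay outside coding-transcript exons. For Becn1-202 these were 282 bases, fewer than the 633 of intron 4. Part of that intron is therefore exon in another coding transcript. Becn1-207, which keeps intron 10, had 3.57 and 2.89 TPM, and Becn1-208, which ends inside intron 2, had 6.08 and 2.27 TPM. The main coding transcript, Becn1-205, had 1.70 and 2.07 TPM from 245 and 149 counts.

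A neighbour on the opposite strand bears on these values. Exons of Cntd1 cover 43.9% of the exonic bases of Becn1, 43.0% of those of Becn1-210 and 48.0% of those of Becn1-202, but no base of Becn1-207 or Becn1-208. The deposited tables gave Cntd1 0.310 and 0.640 TPM. Whether the counting used strand is not given in the sources used here, so reads from both genes cannot be told apart in the shared bases. Becn1-207 and Becn1-208, which share none, summed to 9.65 and 5.16 TPM, above the coding transcripts in both libraries. By estimated counts this turned, with 97.0 and 39.4 counts for Becn1-207 and 60.0 and 11.5 for Becn1-208, against 245 and 149 for the coding Becn1-205 alone. The second quantification also gave coding transcripts only 5.21% and 8.14% of Becn1. Its largest values were on short processed transcripts, Becn1-206 at 10.4 and 6.94 TPM and Becn1-209 at 10.4 and 11.6 TPM. The first quantification listed Becn1-209 at 0 in both libraries and Becn1-206 at 0.680 and 0 TPM.

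**Figure D4:**
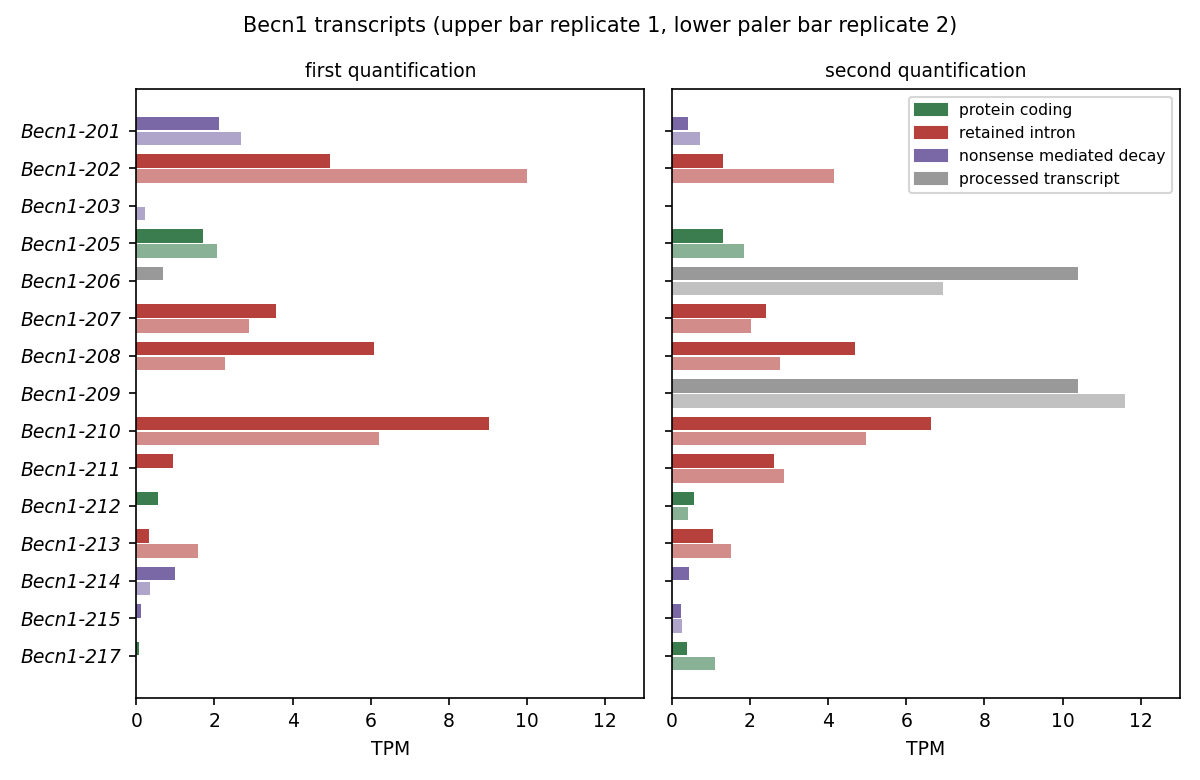
TPM of each Becn1 transcript above 0 in either quantification, first quantification on the left and second on the right, in replicate 1 (upper bar) and replicate 2 (lower, paler bar), coloured by annotated class. The coding transcript Becn1-205 stays at 1.30 to 2.07 TPM in both panels, while Becn1-209 goes from 0 to 10.4 and 11.6 TPM and Becn1-206 from 0.680 and 0 to 10.4 and 6.94 TPM.

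Among the partners of Becn1, coding transcripts alone gave Pik3c3 1.98 and 3.02 TPM, Pik3r4 1.99 and 2.42 TPM, Becn1 2.31 and 2.07 TPM and Atg14 1.30 and 1.73 TPM. The ranges of Becn1, Pik3c3 and Pik3r4 overlapped on this scale, although all transcripts had placed Becn1 above Pik3r4 and Pik3r4 above Pik3c3 without overlap. Uvrag stayed above them at 5.19 and 7.28 coding TPM, but in the second quantification it had 2.43 and 3.65 coding TPM and overlapped Becn1 at 2.24 and 3.35. Its other TPM lay on the retained-intron transcript Uvrag-206 (7.96 and 9.83 TPM, 972 and 596 counts) and on Uvrag-208, of the nonsense-mediated decay class (5.70 and 7.08 TPM). Uvrag-206 shares 42.7% of its bases with the antisense gene Gm45187 (0.940 and 1.62 TPM), under the same limit on strand. In Pik3r4 the share was spread over Pik3r4-211, Pik3r4-203, Pik3r4-204 and Pik3r4-209, led by Pik3r4-211 with 20.2% and 26.7% of the TPM.

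The conjugation genes Atg16l1, Atg12 and Atg3 had a retained-intron transcript as the highest in both libraries. Atg16l1-204, which keeps intron 12 and parts of introns 8 and 13, had 3.73 and 5.34 TPM (414 and 294 counts), and 86.0% of its bases lay outside coding exons. Atg16l1-206, which keeps intron 4, had 2.81 and 4.44 TPM. The small RNA genes Scarna6 (241 and 150 TPM) and Gm25395 (778 and 450 TPM) lie within the bounds of Atg16l1 but share none of its exonic bases. Atg3 has only 2 annotated transcripts, and Atg3-202 (4.16 and 6.14 TPM) lay above the coding Atg3-201 (3.60 and 5.39 TPM) in each library. For Atg12, Atg12-203 stood at 5.01 and 6.93 TPM and the coding Atg12-201 at 2.65 and 4.12 TPM, but Atg12-201, at 4765 bases, held more counts (420 and 324) than Atg12-203 (184 and 127). Atg5, the partner of Atg12, had all of its first-quantification TPM on its 1 coding transcript, and Atg7 had 86.7% and 87.1% on coding transcripts.

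Protein-coding transcripts held under 50% of TPM in both libraries in 9 of the 33 genes (27.3%), near the background of 24.9% of 8566 expressed genes. The 9 were Rb1cc1, Becn1, Pik3r4, Uvrag, Wipi2, Atg4b, Atg3, Atg12 and Atg16l1. In 8 genes the coding share was 80% or more in both: Atg101, Pik3c3, Wipi1, Atg5, Atg7, Atg10, Gabarapl1 and Gabarapl2. No background over expressed genes is given for this count. Of these genes only Atg7 and Gabarapl2 have an annotated retained-intron transcript. Atg101 and Gabarapl1 have only coding transcripts annotated, so their share is fixed by the annotation. By coding transcripts alone Optn (22.9 and 29.6 TPM) and Gabarap (22.4 and 29.1 TPM) remained the highest pair, followed by Rb1cc1 (8.10 and 12.7 TPM) and Atg7 (7.59 and 10.8 TPM). Optn has no retained-intron transcript, and 38.3% and 37.8% of its TPM lay on noncoding processed transcripts, chiefly Optn-203 at 12.5 and 16.6 TPM.

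**Figure D5:**
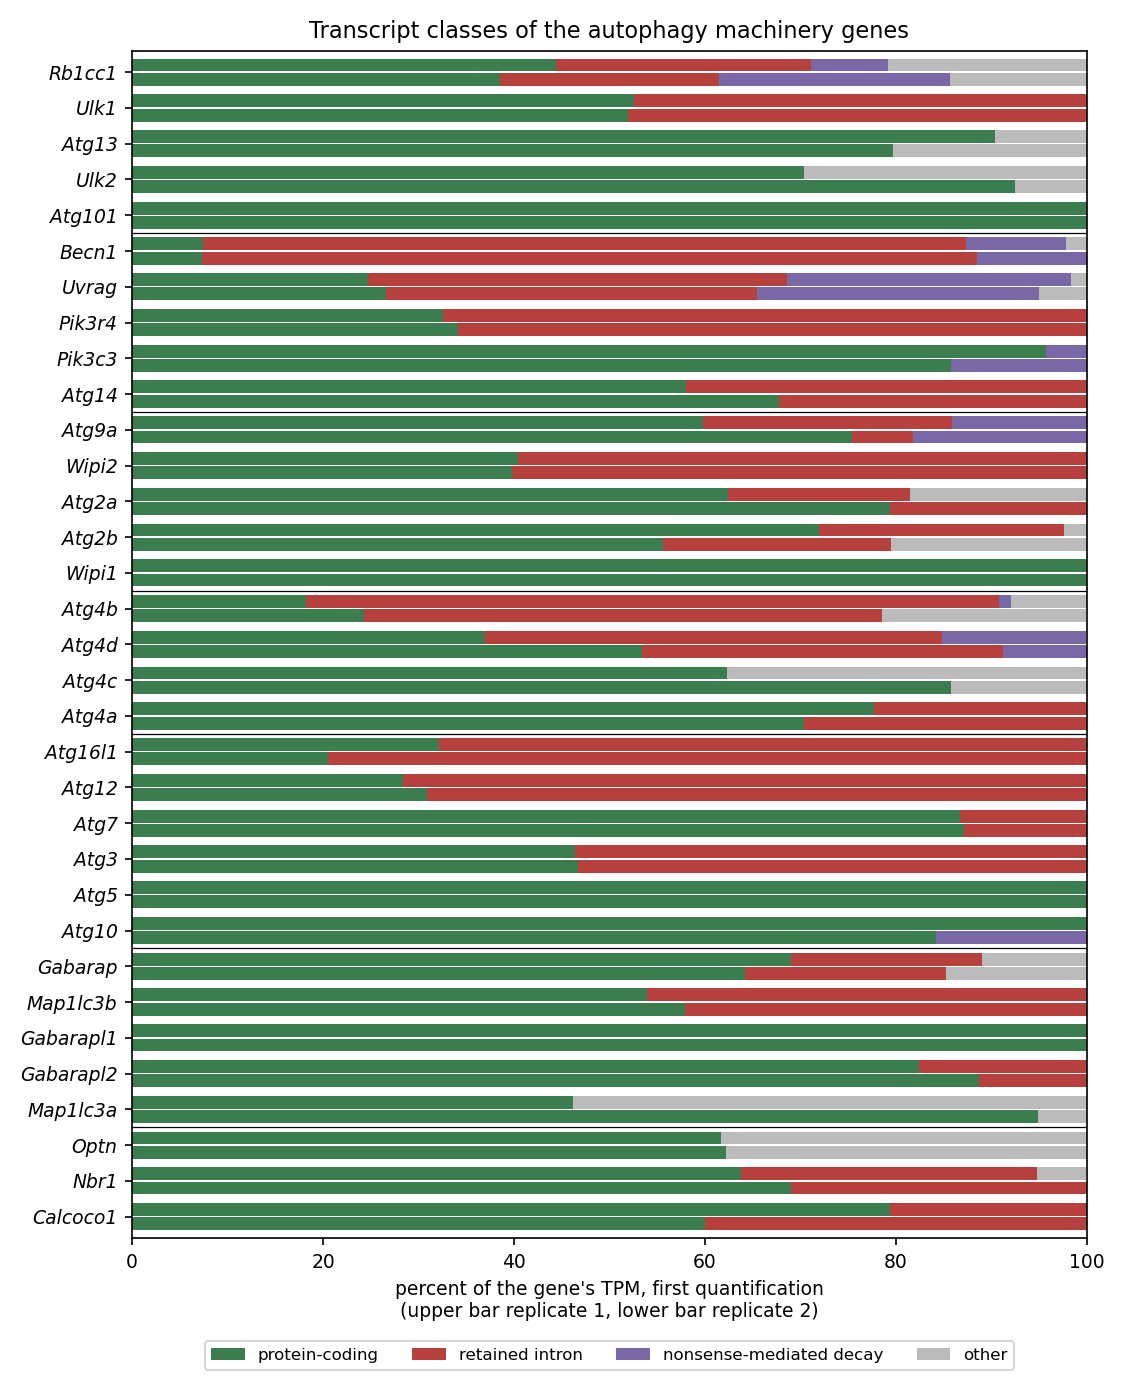
Percent of each gene's TPM on protein-coding, retained-intron, nonsense-mediated decay and other transcripts (first quantification), with replicate 1 as the upper and replicate 2 as the lower bar, by role. Becn1 has the smallest coding share, 7.42% and 7.31%, and Atg101, Wipi1, Atg5 and Gabarapl1 have only coding transcripts above 0. For Atg101 and Gabarapl1 no other class is annotated.

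The same transcript led a gene in both libraries for 24 of the 33 genes in the first quantification and for 26 in the second, and in all 4 tables for 16. No background over expressed genes is given for these counts, or for the count led by retained-intron transcripts. A retained-intron transcript led in both libraries for 7 genes (Becn1, Uvrag, Atg4b, Atg3, Atg12, Atg16l1 and Map1lc3b), and in both quantifications too for Atg3, Atg12, Atg16l1 and Map1lc3b. The leading transcript differed between the libraries for Rb1cc1, Becn1, Pik3c3, Wipi1, Atg4b, Atg4d, Atg7, Map1lc3a and Nbr1. For Rb1cc1 the processed transcript Rb1cc1-202 led in replicate 1 (3.82 TPM, 20.9%) and the nonsense-mediated decay transcript Rb1cc1-214 in replicate 2 (7.96 TPM, 24.2%, from 1.47 TPM in replicate 1). For Atg7 the change was between coding transcripts, with Atg7-201 (2.38 TPM) leading in replicate 1 and Atg7-207 (6.78 TPM) in replicate 2. In both libraries the second quantification put the same other transcript first for Atg13, Atg14, Uvrag, Wipi2, Atg2b, Nbr1 and Calcoco1.

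The 2 quantifications share reads, so their likeness is one of methods and not of replicates. Among the 30 genes expressed in the first, relative to the median over expressed genes, Atg13 alone was past 1.5-fold higher in the second in both libraries and none was lower, against a background of 13.9% higher and 3.16% lower. Atg13 was at 5.14 and 7.07 TPM in the second quantification, 1.93-fold and 1.83-fold above the first after centring. The second gave 70.4% and 73.0% of Atg13 to noncoding transcripts, led by Atg13-204 at 1.53 and 2.32 TPM, a transcript of 644 bases that the first listed at 0. In replicate 1 alone 3 of the 30 genes were past 1.5-fold higher, and in replicate 2 alone 7. The background above is for both libraries together, and none is given for either alone.

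Exons of other genes overlap those of 10 of the 33 genes, by more than 10% of exonic bases for 5. Besides Becn1 and Uvrag these were Atg9a (31.8%, with Gm29253 on the same strand), Gabarapl1 (28.3%, with 1700101I11Rik on the opposite strand) and Atg4d (19.3%, with Kri1 on the opposite strand). Kri1, at 10.9 and 17.5 TPM, was above Atg4d itself, while Gm29253 (0.260 and 0 TPM) and 1700101I11Rik (0.110 and 0 TPM) were low. No background over protein-coding genes is given for the counts of overlapped genes, so they do not set the 33 genes apart.

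Other genes of the pathway were read from 5 lists that share no gene with the 33. Against the same background of 4.49% and 9.97%, 1 of the 74 genes whose ratio could be given was past 1.5-fold higher in replicate 2 and 5 were lower. For counts at 1 TPM or more in both libraries, the background was 8572 of 22028 protein-coding genes. Among 15 other cargo and organelle receptors 14 were at 1 TPM or more, led by Sqstm1 (150 and 262 TPM), which encodes the receptor p62, Tax1bp1 (46.6 and 74.0 TPM) and Fkbp8 (30.6 and 35.3 TPM). Sqstm1 was thus above Optn in both libraries. The lowest, the mitophagy receptor gene Bnip3 (0.580 and 1.78 TPM, 31 and 37 counts), was also 1.72-fold higher in replicate 2. Of 20 other core factors and regulators of initiation 18 were at 1 TPM or more, led by Vmp1 (323 and 213 TPM), which encodes a lipid scramblase of the endoplasmic reticulum, the kinase gene Tbk1 (55.9 and 79.1 TPM) and the late endosome GTPase gene Rab7 (35.1 and 60.6 TPM). Vmp1 (1.65-fold), Rubcnl (2.76-fold, 205 and 49 counts) and Rab33b (1.53-fold) were lower in replicate 2, and Atg9b was lowest at 0.110 ± 0.0141 TPM (n = 2), below its paralogue Atg9a.

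The upstream and downstream genes completed the pathway. Of 15 mTORC1 and AMPK genes, which sense nutrients and energy, 12 were at 1 TPM or more, led by Stk11 (17.9 and 29.3 TPM), Rheb (12.2 and 20.6 TPM) and Rptor (12.4 and 19.3 TPM). Mlst8 (94 and 37 counts) was 1.68-fold lower in replicate 2, and the AMPK catalytic subunit gene Prkaa2 was lowest at 0.0500 and 0.0700 TPM, below Prkaa1 at 2.50 and 4.66 TPM. All 13 matched genes of autophagosome-lysosome fusion were at 1 TPM or more, with Vps16 (24.2 and 29.4 TPM), Ykt6 (16.8 ± 2.52 TPM) and Vps41 (10.6 and 18.1 TPM) highest and Rilp (1.73 and 3.40 TPM) lowest. The SNARE gene Vamp8 was 1.53-fold lower in replicate 2. Of 12 transcription factors linked to autophagy genes 11 were at 1 TPM or more, led by Tfec (104 and 180 TPM), Mitf (46.6 and 53.0 TPM) and Atf4 (34.0 and 32.3 TPM). Tfeb, which with these first 2 genes belongs to the MiT/TFE family, stood at 3.40 and 3.13 TPM, and Foxo1 was lowest at 0.750 and 1.10 TPM. The list medians ran from 6.54 ± 1.27 TPM for mTORC1 and AMPK to 13.4 ± 3.79 TPM for the transcription factors (n = 2), beside 5.21 ± 0.940 TPM for the 33 genes. Tfeb and Prkaa1 fall outside the rule for naming genes of these lists and were chosen after their values were seen.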

How the data were processed

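Total RNA of the nucleoplasmic fraction was measured in 2 libraries of 1 group. Per the file headers and accompanying notes, the authors derived gene and transcript tables from reads aligned to the mm10 transcriptome (GENCODE M21), called the first quantification, and a second transcript table from 10 read files per library. Which aligner and quantifiers were used is not given in the sources used here. Estimated counts, as deposited, are not normalized and may be fractional. TPM, as deposited, gives each feature a share of all transcripts, short RNAs among them. FPKM, as deposited by the authors, served as an alternative. The authors' deposited interval bounds of TPM (unit signal) were compared with the TPM, and their deposited percent of a gene per isoform was read but not printed.

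The 33 genes were matched by symbol, and gene types, transcript classes, exons and sequences came from GENCODE M21. The genes and lists were chosen with earlier results of these data known. Gene sums over transcripts gave levels in the second quantification. Estimated counts were rounded, filtered with filterByExpr and scaled by TMM (edgeR 4.0.16, R 4.3.3, prior count 2), and a ratio past 1.5-fold was called. The code was checked on simulated Poisson counts without variation between replicates, with 200 of the better-counted genes changed 3-fold. Of these 100% were called, as were 0.22% of 9587 unchanged genes. Real libraries vary more, so this gives no rate of false calls for these data. Counting intervals are exact (Clopper-Pearson) at 95% and cover counting error only. A count of 0 allows up to 3 counts, or 0.132 and 0.201 CPM. Neighbours in an order were said to differ where both libraries gave the same order with no overlap. The rest was done in Python 3.11.15 (pandas 2.3.3, numpy 2.4.6, scipy 1.17.1), with figures from matplotlib 3.10.9.

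All 33 genes are named. Detail went to the highest and lowest of each role, to those past 1.5-fold between libraries or quantifications, to retained-intron shares of 20% or more in both libraries, and to genes whose leading transcript differed. Of each pathway list the 3 highest, the lowest and any past 1.5-fold are named. Alternatives were FPKM, the second quantification, TPM rescaled to protein-coding genes, DESeq2 1.42.0 size factors, centred TPM (pseudocount 0.1), no filter, other prior counts and pseudocounts, other TPM minimums, and each library alone. Vamp7 of the fusion list was not analysed here.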

Additional observations from a re-analysis of the deposited data

How the results depend on the processing

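No paired analysis was possible because the labels give 1 group. FPKM and TPM rescaled to protein-coding genes scale all genes of a library alike, and either of 2 libraries alone lies within their SD by construction, so these alternatives say nothing about the stability of the medians relative to expressed genes. By the second quantification those medians were 0.614 for all 33 genes, 0.645 for the ULK1 complex, 0.598 for the class III PI3-kinase complex, 0.368 for the PI3P effector group, 0.986 for conjugation, 0.611 for the LC3 and GABARAP family and 1.84 for cargo receptors. With only genes at 1 TPM or more they were 0.814 for all genes, 0.584 for the PI3P effector group and 1.16 for the LC3 and GABARAP family.

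Past 1.5-fold between libraries, DESeq2 size factors and a prior count of 0.5 gave 0 genes in each direction. Centred TPM gave 1 higher and 2 lower, the second quantification 1 higher and 1 lower, and no filter 1 lower, which was Map1lc3a with 6 counts in replicate 2. Retained-intron shares of 20% or more were found in 11 of 14 genes at 5 TPM or more (78.6%, background 71.0%). By share of estimated counts they were found in 10 of 22 (45.5%, background 47.4%). The median share over genes was 53.0% by the second quantification and 17.9% by estimated counts, against 40.6%. Coding shares under 50% in both libraries were found in 15 genes by the second quantification (45.5%, background 40.7%) and in 7 by estimated counts (21.2%, background 16.5%), against 9. Between quantifications, 3 to 7 genes were past 1.5-fold higher in a single library. The alternatives by estimated counts, and the coding shares, coding levels and order within roles by the second quantification, were chosen after seeing the data. The causes of these differences were not tested. Depth limits Map1lc3a, Atg101, Atg10 and Wipi1, whose counts in replicate 2 were 6, 20, 25 and 34.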
